A study of Mus musculus with 8 samples.

Results

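The genes examined here encode proteins of the splicing machinery. These are the SR proteins (Srsf), the heterogeneous nuclear ribonucleoproteins (Hnrnp), and the SF3a and SF3b subunits of the U2 particle (Sf3a, Sf3b). Proteins of the small nuclear ribonucleoproteins (Snrp) and the Prp factors (Prpf) complete the set. The genes were chosen by name. All protein-coding genes of the GENCODE M21 mouse annotation whose names begin with one of these 6 stems were taken, except Snrpn, which gave 64 of 21951 genes. They comprised 11 Srsf, 20 Hnrnp, 9 Sf3a or Sf3b, 11 Snrp and 13 Prpf genes. A gene was called targeted, or bound, in a library when at least 1 peak overlapped the 1000 bp on either side of any of its transcript starts by 20 bp or more.

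The peaks came from chromatin immunoprecipitation and sequencing (ChIP-seq), in which DNA cross-linked to a protein is pulled down with an antibody and sequenced. The cells were E14Tg2a mouse embryonic stem cells (ESCs), a single established line, at passages 37 to 40. LIF groups were pluripotent ESCs held in Leukemia Inhibitory Factor, and RA groups were monolayers without LIF that had received 1 µM Retinoic Acid for 48 h, which starts neuronal differentiation. FGFR1, a growth factor receptor that also enters the nucleus, and the nuclear receptors RXR and Nur77 were each profiled in both states, and the histone variant H3.3 in RA only. FGFR1 in RA had 2 libraries (replicates 1 and 2, the second from a repeat experiment), and each of the other 6 groups had 1, with chromatin pooled from several plates. Every group with 1 library is therefore reported as a count without a replicate error, and LIF was not tested against RA. Peak lists hold no expression values, so the identity of the cells could not be checked with marker transcripts.

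Splicing removes introns from pre-mRNA. SR proteins bind exonic RNA and recruit the spliceosome, whereas hnRNPs coat nascent RNA and often block splice sites. Snrp proteins build the U1, U2, U4 and U5 particles, SF3a and SF3b attach U2 to the branch point, and Prp factors assemble, activate and drive the spliceosome.

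The promoters of these genes were targeted by FGFR1 more often after RA than before it. FGFR1 peaks lay at 28 of the 64 promoters in LIF, which is 43.8%, where 17.0% of all protein-coding genes were bound. In RA, FGFR1 was found at 53 promoters in replicate 1 (82.8%, against 50.7% of all genes) and at 61 in replicate 2 (95.3%, against 49.6%). The RA mean was 57.0 ± 5.66 genes, or 89.1% ± 8.84 (SD, n = 2). The single LIF library has no replicate spread, so the difference between the states has no error of its own. Both RA libraries bound 52 members (81.2%, against 39.5% of all genes), and at least 1 of them bound 62 (96.9%, against 60.9%). The RA libraries were deeper than the LIF library, with background densities of 4.16 and 6.78 fragments per kb against 2.71. When each was scaled down to the depth of the LIF library, a calculation added after the data were seen, 52 members stayed bound in replicate 1 (48.5% of all genes) and 60 in replicate 2 (44.1%). This scaling used background density alone. The shortest peaks differed too, at 114 bp in LIF, 72 bp in replicate 1 and 153 bp in replicate 2, and the part of this difference was not tested. The list of replicate 1 was long, however, and with the same number of peaks taken from every library, its 10634 strongest, it held 32 members (18.1% of all genes), against 26 in LIF (15.5%) and 60 in replicate 2 (43.1%).

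**Figure D1:**
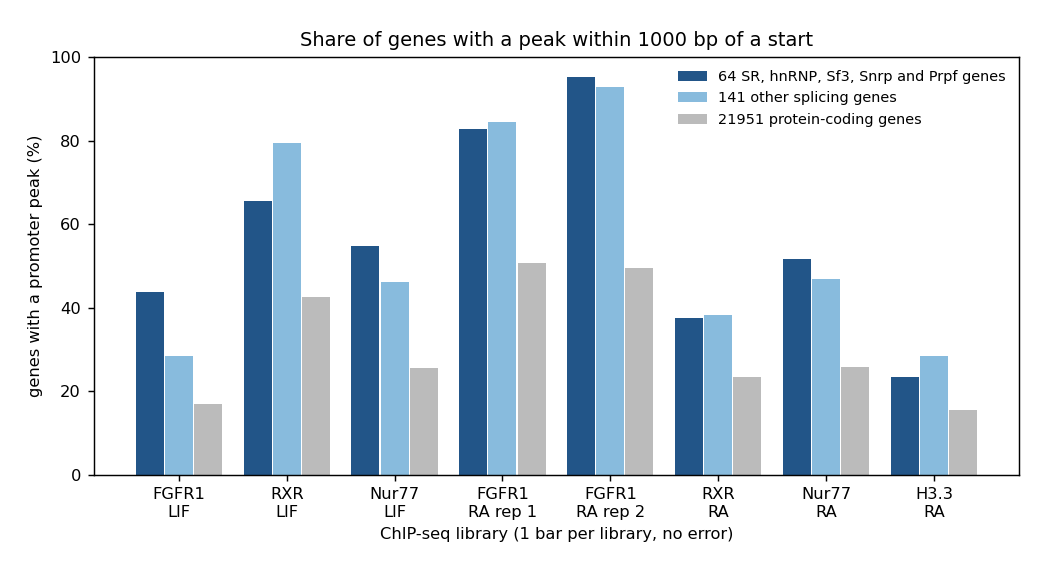
Percentage of genes with at least 1 peak within 1000 bp of a transcript start (y axis) in each of the 8 libraries (x axis), for the 64 splicing genes, 141 other splicing genes and all 21951 protein-coding genes. In every library the bar of the 64 genes is above that of all genes, which include genes with no peak in any library. The bar of the 64 genes reaches 95.3% for FGFR1 in RA, replicate 2.

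RXR and Nur77 gave larger numbers than FGFR1 in LIF and smaller ones in RA. RXR lay at 42 members in LIF (65.6%, against 42.5% of all genes) and at 24 in RA (37.5%, against 23.3%). Nur77 bound 35 members in LIF (54.7%, against 25.5%) and 33 in RA (51.6%, against 25.8%). H3.3 peaks were present at 15 members in RA (23.4%, against 15.5%). The RXR libraries also differed in depth, with a background of 7.09 fragments per kb in LIF and 1.87 in RA. With the LIF library scaled to the depth of the RA library, only 6 members kept an RXR peak in LIF (9.38%, against 3.52% of all genes), fewer than the 24 in RA. The share of all genes turned in the same way, since 23.3% had RXR in RA. The scaling used background density alone. The shortest peaks also differed, at 80 bp in LIF and 116 bp in RA, and the part of this difference was not tested. With equal numbers of peaks the direction stayed, at 22 members in LIF (14.9% of all genes) and 11 in RA (12.7%). For Nur77 the same scaling left 34 members in LIF (53.1%, against 23.9%).

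The members' windows were somewhat longer, with a median of 5.0 transcript starts and 4543.5 bp a gene, against 3.0 starts and 4002.0 bp for all genes. Of all genes, 34.5% had no peak in any library. Among genes bound in at least 1 library, 24.2% of members had H3.3, against 23.6% of all such genes. For RXR the shares were 67.7% against 64.9% in LIF and 38.7% against 35.6% in RA. For FGFR1 they were 45.2% against 26.0% in LIF, and 85.5% against 77.5% and 98.4% against 75.8% in RA. For Nur77 they were 56.5% against 39.0% in LIF and 53.2% against 39.4% in RA.

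**Figure D2:**
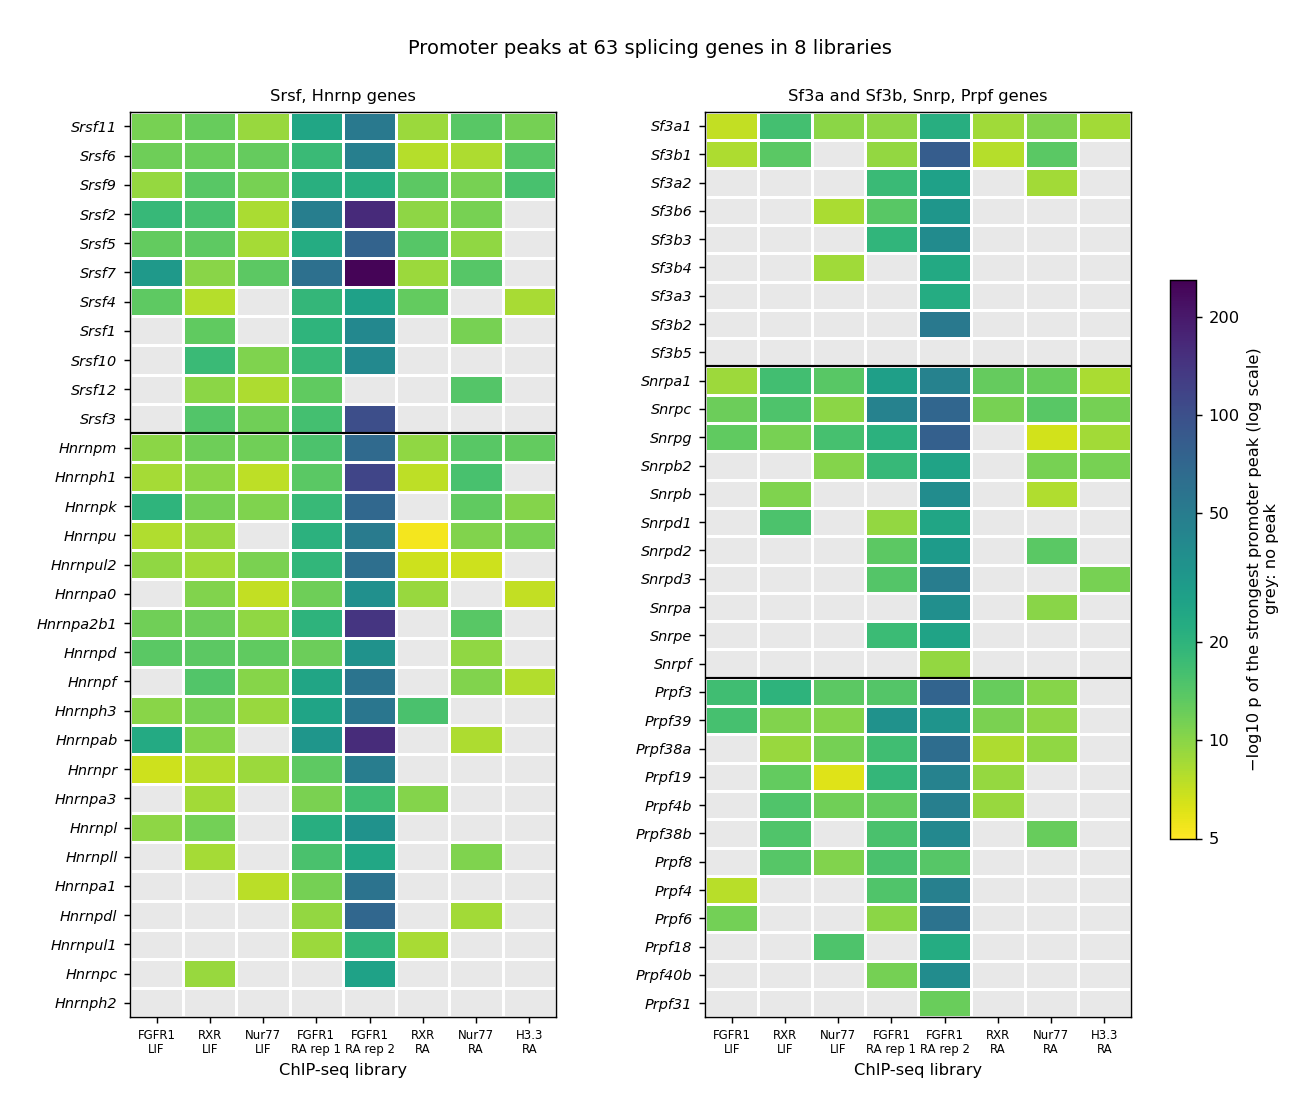
Strongest promoter peak of 63 of the 64 splicing genes (y axis, grouped by name stem and ordered by the number of libraries bound) in the 8 libraries (x axis). Colour gives −log10 p on a log scale and grey means no peak. The 7 genes bound everywhere, such as Srsf11 and Snrpc, are coloured in all 8 columns, and the column of FGFR1 in RA, replicate 2, has the fewest grey cells.

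Srsf7 had the strongest FGFR1 peak of the members in all 3 FGFR1 libraries. This gene, which encodes an SR protein that also takes part in mRNA export, lies at chr17:80200080-80207307 on the minus strand (mm10). Its FGFR1 peak had a −log10 p of 30.9 in LIF, 61.4 in RA replicate 1 and 251 in RA replicate 2. The summits rested on 25, 44 and 230 fragments, and lay 59, 33 and 22 bp downstream of the nearest start, in the 5′ untranslated exon. In replicate 2 this peak ranked 2 among the 14082 peaks of the whole list. Srsf2, the SR protein also known as SC35, had a −log10 p of 18.5, 48.9 and 162 in the same libraries, and Hnrnpab, an RNA-binding protein of the hnRNP A/B type, had 23.7, 32.5 and 161. For these 3 genes the value was lowest in LIF and highest in RA replicate 2, but −log10 p grows with depth and each list has its own scale. Within its own list, the median member bound in replicate 2 stood at percentile 82.6 of all bound genes, and 19 of 61 members (31.1%) were in the top 10% of bound genes by −log10 p. In replicate 1 the median percentile was 73.5 and 9 of 53 members (17.0%) were in the top 10%, and in LIF these values were 62.4 and 4 of 28 (14.3%).

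The promoter sequences of the 3 members with the strongest FGFR1 peaks in RA replicate 2 follow, together with those of Srsf6 and Srsf9, SR protein genes bound in all 8 libraries. They are RefSeq promoters on GRCm38.p6 (mm10), written 5′ to 3′ on the strand of the gene. Each shows up to 200 bases that end at the base before the RefSeq start, or 2 bases earlier for Srsf7, and leaves out annotated untranslated exons. Capitals mark exact matches, on either strand, to any of 8 sequence words for transcription factors, spelled out in the next paragraph.
Srsf7 (chr17:80207308-80207459, minus strand), overlapped by the strongest FGFR1 peaks in LIF and in both RA libraries.
Srsf7: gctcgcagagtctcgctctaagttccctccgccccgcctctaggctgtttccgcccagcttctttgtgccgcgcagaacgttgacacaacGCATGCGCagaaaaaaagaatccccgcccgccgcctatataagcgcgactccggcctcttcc
Srsf2 (chr11:116853095-116853294, minus strand), overlapped by the strongest FGFR1 peaks in both RA libraries.
Srsf2: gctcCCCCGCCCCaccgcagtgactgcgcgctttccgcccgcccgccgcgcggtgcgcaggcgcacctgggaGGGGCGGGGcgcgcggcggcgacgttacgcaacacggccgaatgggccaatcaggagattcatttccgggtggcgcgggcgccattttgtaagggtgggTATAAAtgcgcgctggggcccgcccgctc
Hnrnpab (chr11:51606882-51607081, minus strand), overlapped by the strongest FGFR1 peaks in LIF and in RA replicate 2.
Hnrnpab: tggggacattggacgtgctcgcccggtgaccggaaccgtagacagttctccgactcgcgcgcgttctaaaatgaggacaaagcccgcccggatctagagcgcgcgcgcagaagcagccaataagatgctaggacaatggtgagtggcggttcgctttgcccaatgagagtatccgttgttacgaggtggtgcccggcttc
Srsf6 (chr2:162931308-162931507, plus strand), overlapped by the strongest peak of 6 libraries.
Srsf6: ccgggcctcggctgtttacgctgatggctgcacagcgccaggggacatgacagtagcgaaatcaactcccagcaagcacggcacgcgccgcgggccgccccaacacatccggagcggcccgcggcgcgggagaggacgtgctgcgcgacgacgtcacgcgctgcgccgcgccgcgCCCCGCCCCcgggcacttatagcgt
Srsf9 (chr5:115326977-115327176, plus strand), overlapped by the strongest FGFR1 peaks in both RA libraries.
Srsf9: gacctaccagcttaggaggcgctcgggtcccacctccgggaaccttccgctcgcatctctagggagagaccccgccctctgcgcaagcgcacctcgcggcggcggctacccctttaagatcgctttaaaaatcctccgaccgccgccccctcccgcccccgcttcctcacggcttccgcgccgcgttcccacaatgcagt
The Srsf7 stretch holds 1 match to the NRF1 word. In the Srsf2 stretch there are SP1 words on both strands and a TATA box word, and the Srsf6 stretch has 1 SP1 word. None of the 8 words occurs in the stretches of Hnrnpab and Srsf9.

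A wider comparison of promoter sequence used the RefSeq promoters, from 250 bases before to 50 after a start, of 56 of the 64 members (73 promoters) and of 16522 of 21924 protein-coding gene names (20150 promoters). The ETS word CCGGAAG was present in 25 member promoters, 34.2%, against 11.9% of all promoters. The SP1 word GGGGCGGGG was present in 23.3% against 15.8%, and the E-box CACGTG in 15.1% against 8.03%. The nuclear receptor word AGGTCA, the core of sites for RXR and Nur77, was present in 8 member promoters, 11.0%, against 14.4%. The remaining words each lay in a smaller share of member promoters than the words above. Of these, only the TATA box was less frequent in member promoters than in all promoters. They were the cAMP response element TGACGTCA (2.74% against 2.31%), the NRF1 word GCATGCGC (4.11% against 3.65%), the YY1 word AAGATGGCG (2.74% against 1.93%) and the TATA box TATAAA (8.22% against 12.1%). Member promoters were rich in CpG, since 69 of 73 (94.5%) had a ratio of observed to expected CpG above 0.6, against 49.1% of all promoters. The median ratio was 0.921 in member promoters and 0.588 in all promoters, and the median GC content was 60.3% and 57.0%. A count with 1 window per gene, at the GENCODE gene start, covered all 64 members. The ETS word was then in 26.6% of members against 10.8% of all genes, and 79.7% against 44.3% passed the CpG ratio. SP1 (20.3% against 14.5%), E-box (12.5% against 7.75%) and YY1 (3.12% against 1.69%) words also stayed more frequent in members. The shares were close for AGGTCA (14.1% against 14.8%) and the TATA box (12.5% against 12.6%). For the NRF1 word (1.56% against 3.70%) and the cAMP response element (1.56% against 2.43%) the direction turned. In 201 bp around the strongest FGFR1 summit in RA replicate 2, the ETS word lay at 17 of 61 members (27.9%) and at 15.7% of all bound genes. In RA replicate 1 it lay at 10 of 53 (18.9%) and at 9.99%. The other libraries ranged from 8.57% of members for Nur77 in LIF (against 7.70%) to 33.3% for H3.3 (5 of 15, against 7.77%). A match is a description of the letters and not a binding site. The part of CpG content in these shares was not tested.

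Among the SR protein genes, RXR in LIF and FGFR1 in RA replicate 1 each covered all 11. FGFR1 bound 7 of 11 in LIF and 10 in replicate 2, where the exception was Srsf12, a little-studied SR protein gene. Nur77 bound 9 in LIF and 8 in RA, RXR kept 7 in RA, and H3.3 was found at 4. The shares of all genes were 17.0% for FGFR1 in LIF, and 50.7% and 49.6% in its RA replicates. They were 42.5% and 23.3% for RXR in LIF and RA, 25.5% and 25.8% for Nur77, and 15.5% for H3.3. These shares also apply to the other groups of genes below. The median Srsf gene was bound in 7.0 of the 8 libraries. This was the highest of the 5 groups of genes.

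Of the 20 hnRNP genes, FGFR1 bound 11 in LIF and 18 and 19 in the RA replicates. RXR bound 16 in LIF and 8 in RA, while Nur77 lay at 11 in both states. Hnrnpk, a poly-C binding protein, had FGFR1 peaks with a −log10 p of 19.8 in LIF and of 18.2 and 69.2 in RA, and it lacked a peak only for RXR in RA. The value of RA replicate 1 was thus below the LIF value. Hnrnpd, Prpf3 and Prpf6 were among the others of which this was true, whereas 23 of the 28 members bound in LIF were higher in replicate 1 and 28 of 28 were higher in replicate 2.

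Of the 9 Sf3 genes, FGFR1 bound 2, RXR 2 and Nur77 3 in LIF, where 17.0%, 42.5% and 25.5% of all genes were bound. Sf3b5 was not counted here for RXR and Nur77, because its RefSeq start, at which both had a peak, is not in the annotation used. In RA, FGFR1 was present at 5 and 8. Sf3b1, the SF3b subunit that contacts the branch point, was bound in 6 libraries and had an FGFR1 −log10 p of 8.19 in LIF and of 9.45 and 81.9 in RA. Sf3a3 and Sf3b2 had a promoter peak in RA replicate 2 of FGFR1 and in no other library, with a −log10 p of 22.8 and 52.3. Prpf31, a U4/U6 protein, and Snrpf, an Sm ring protein, were also bound in replicate 2 alone, at 12.3 and 9.47. These 4 genes have no second library behind them.

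All 11 Snrp genes and all 13 Prpf genes had an FGFR1 peak in RA replicate 2. In LIF, FGFR1 bound 3 Snrp and 5 Prpf genes, and in RA replicate 1 it bound 8 and 11. Snrpc, the U1 particle protein C, reached a −log10 p of 45.7 in replicate 1 and 72.0 in replicate 2, against 12.1 in LIF. RXR was found at 5 Snrp and 8 Prpf genes in LIF and at 2 and 5 in RA. Nur77 bound 4 Snrp genes in LIF and 7 in RA, and 8 Prpf genes in LIF and 4 in RA, differences of a few genes in a single pair of libraries. H3.3 lay at 5 Snrp genes and at 0 Prpf genes, where 15.5% of all genes had it. With 11 and 13 genes these are small counts.

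A promoter peak was present in all 8 libraries at 7 members, which is 10.9% of members where 2.90% of all genes were bound in all 8. They were Srsf6, Srsf9 and Srsf11 (SR proteins), Hnrnpm, Sf3a1, Snrpa1 (the U2 particle protein A′) and Snrpc. Srsf9 was the member with the highest H3.3 value, a −log10 p of 15.7, and had 9.37 for FGFR1 in LIF, 14.0 and 11.2 for RXR and Nur77 in LIF, 21.6 and 21.8 for FGFR1 in RA, and 13.5 and 11.3 for RXR and Nur77 in RA. Each list has its own scale, and within the lists Srsf9 stood between percentile 33.6 of the bound genes (FGFR1 in LIF) and 93.4 (H3.3). In LIF, Snrpa1 had a −log10 p of 8.96 with the FGFR1 antibody, 16.5 with RXR and 13.9 with Nur77. In RA its values were 28.4 and 45.3 with FGFR1, 12.8 with RXR, 12.6 with Nur77 and 8.27 with H3.3. For Sf3a1 the highest value outside FGFR1 replicate 2 (21.7) was that of RXR in LIF, 16.2. Not all these peaks lay at the same start. The strongest Hnrnpm peaks of Nur77 in LIF (chr17:33649802-33650012) and of H3.3 (chr17:33649803-33649927) were at another transcript start of the gene than those of FGFR1 in RA replicate 2 (chr17:33685180-33685649).

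Only 2 members, Hnrnph2 and Sf3b5, had no promoter peak in any library, 3.12% of members where 34.5% of all genes had none. Hnrnph2, an X-linked hnRNP that binds G-rich RNA, shares a divergent promoter with Gla, and its nearest peak was 15245 bp away in FGFR1 RA replicate 2 and farther in the other 7 libraries. For Sf3b5, a small SF3b subunit, the call rested on the annotation. GENCODE M21 places its only start at chr10:13005343, and RefSeq on the same build places it 3107 bp downstream, at chr10:13008450. Within 1000 bp of the RefSeq start, 6 of the 8 libraries had a peak, FGFR1 in LIF and H3.3 being the exceptions. The strongest of these was in FGFR1 RA replicate 2 (chr10:13008350-13008764, −log10 p of 36.1). Over all 64 members, 4 RefSeq starts were more than 1000 bp from every GENCODE start. They were those of Sf3b5, Hnrnpu, Hnrnpul1 and Hnrnph1. At the RefSeq start alone Hnrnph1 was bound in 0 libraries in place of 7, Hnrnpu in 3 in place of 7 and Hnrnpul1 in 2 in place of 3.

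FGFR1 was next compared between LIF and RA gene by gene. A gene is called gained when it had a peak in RA and none in LIF, lost in the reverse case, and kept when it had both. Of the 28 members bound in LIF, 28 were bound in both RA libraries and 0 in neither, where 86.5% of all LIF-bound genes were kept in both and 1.80% were lost from both. Of the 36 members unbound in LIF, 24 (66.7%) gained FGFR1 in both RA libraries, against 29.8% of all unbound genes. With both RA libraries scaled to the LIF depth, the number gained was again 24, against 25.1% of all unbound genes. With equal numbers of peaks it was 13 of 38 (34.2%, against 8.64%). The gained genes were Srsf1, Srsf3, Srsf10, Hnrnpa0, Hnrnpa1, Hnrnpa3, Hnrnpdl, Hnrnpf, Hnrnpll, Hnrnpul1, Sf3a2, Sf3b3, Sf3b6, Snrpb2, Snrpd1, Snrpd2, Snrpd3, Snrpe, Prpf4b, Prpf8, Prpf19, Prpf38a, Prpf38b and Prpf40b. By the mean over both RA lists, which replicate 2 dominates, Srsf3, the smallest SR protein, came first with a −log10 p of 16.2 in replicate 1 and 102 in replicate 2. Hnrnpf, which binds G-runs, had 25.6, the highest of the gained genes in replicate 1, and 56.7 in replicate 2, and Prpf38a, a factor that joins the spliceosome before activation, had 16.8 and 64.2. Hnrnpdl had 9.42 and 70.4. For Hnrnpa1, an hnRNP that represses exons, the values were 11.5 and 57.5, and for Prpf19, a ubiquitin ligase of the spliceosome, they were 19.0 and 45.5. The gained genes had weaker peaks than the kept genes, with a median −log10 p of 15.5 against 19.8 in replicate 1 and 38.8 against 56.5 in replicate 2, and their ranges overlapped.

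**Figure D3:**
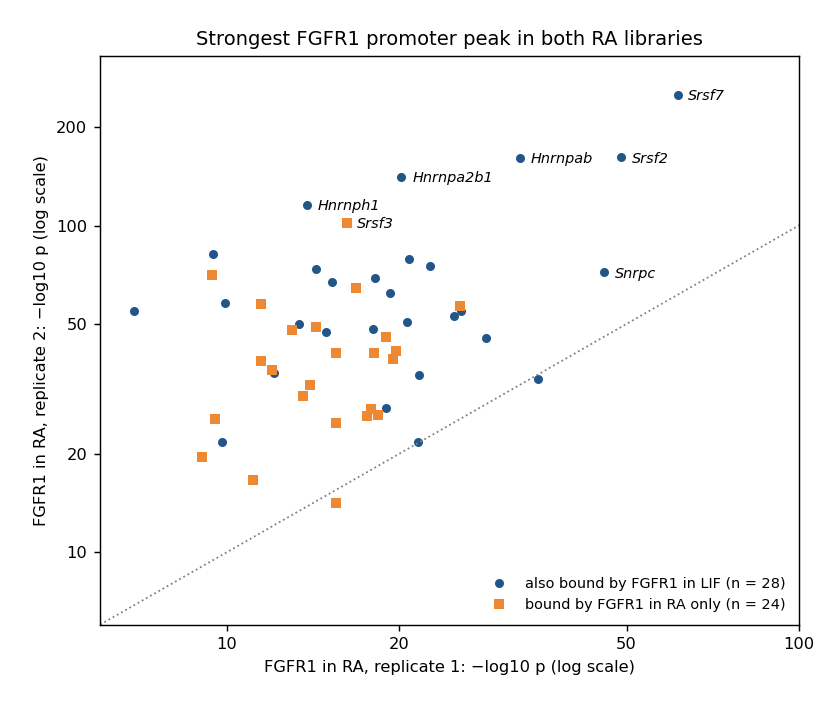
−log10 p of the strongest FGFR1 promoter peak of the 52 splicing genes bound in both RA libraries, replicate 1 (x axis) against replicate 2 (y axis), both on log scales. Circles are the 28 genes also bound by FGFR1 in LIF, squares the 24 bound only in RA, and the dotted line marks equal values. 50 of 52 genes lie above the line, and Srsf7 is the highest in both libraries.

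The 2 RA libraries differed in strength and agreed in place at most of these genes. They also differed in peak width, with a median over the whole list of 89.0 bp in replicate 1 and 311.0 bp in replicate 2. The part of width in the values below was not tested. Replicate 2 had the higher −log10 p at 50 of the 52 members bound in both, the exceptions being Prpf39 (35.0 and 33.8) and Prpf8 (15.5 and 14.2). At 48 of the 52 (92.3%) at least 1 peak of one library shared a base with a peak of the other, against 86.8% of all genes bound in both. The 4 without a shared base were Hnrnpa0, Hnrnpdl, Prpf40b and Snrpb2. The median distance between the strongest summits was 58.5 bp. Srsf12 was the only member bound in replicate 1 and not in replicate 2.

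RXR lost 19 of its 42 LIF members in RA (45.2%), and 54.4% of all genes bound in LIF lost it. It gained 1 of 22 (4.55%, against 6.85%), Hnrnpul1, a relative of hnRNP U, with a −log10 p of 8.37. The lost genes with the highest LIF values were Srsf10 (18), Snrpd1 (15.4) and Prpf38b (14.9). As given above, the depth of the RXR libraries differed, and with equal depth the numbers were 2 lost and 20 gained. Among the genes with RXR in RA, the highest values were 15.5 at Hnrnph3, 14.1 at Srsf5 and 13.5 at Srsf9, and the median member stood at percentile 39.9 of the genes bound by RXR in RA. In LIF that percentile was 67.2, and the highest values were 20.2 at Prpf3, a U4/U6 protein, then Srsf10 and Snrpa1.

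Nur77 exchanged part of its members. It lost 13 of 35 (37.1%, against 44.9% of all genes) and gained 11 of 29 (37.9%, against 15.8%). The lost genes of highest LIF value were Prpf18, a factor of the second splicing step (15.1), Prpf4b, a spliceosomal kinase (11.8), and Srsf3 (11.8). The gained genes of highest RA value were Sf3b1 (13.8), Snrpd2 (13.8) and Prpf38b (12.5). At equal depth 12 were lost and 11 gained, but under a limit of 10 for −log10 p 11 were lost and 13 gained, so the direction of this small difference turned. The highest Nur77 values were 16.0 at Snrpg, an Sm ring protein, in LIF, and 15.8 at Hnrnph1, 14.5 at Srsf12 and 14.2 at Srsf7 in RA. In RA 0 of the 33 members were in the top 10% of the genes bound by Nur77.

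FGFR1, RXR and Nur77 often met at the same members. In LIF the 3 factors shared 21 promoters (32.8% of members, against 9.51% of all genes), and FGFR1 was found without the other 2 at 2, Prpf4 and Prpf6 (3.12%, against 1.79%). In RA they shared 17 promoters with either FGFR1 library (26.6%, against 13.0% with replicate 1 and 11.4% with replicate 2). FGFR1 alone was present at 15 members with replicate 1 (23.4%, against 19.5%) and at 22 with replicate 2 (34.4%, against 22.1%). In RA, 0 members carried RXR without FGFR1, a combination also rare among all genes (2.13% with replicate 1 and 4.66% with replicate 2). Sharing a promoter did not always mean sharing a site. In LIF the FGFR1 and RXR peaks shared a base at 24 of 26 members (92.3%, against 83.2% of all genes bound by both), but FGFR1 and Nur77 at 14 of 21 (66.7%, against 74.5%). In RA, FGFR1 replicate 1 shared a base with Nur77 at 28 of 31 members (90.3%, against 81.5%) and replicate 2 at 23 of 32 (71.9%, against 74.0%). With RXR in RA, replicate 1 shared a base at 20 of 24 members (83.3%, against 85.1%) and replicate 2 at 17 of 24 (70.8%, against 78.6%).

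The 15 members with H3.3 in RA were Hnrnpa0, Hnrnpf, Hnrnpk, Hnrnpm, Hnrnpu, Sf3a1, Snrpa1, Snrpb2, Snrpc, Snrpd3, Snrpg, Srsf4, Srsf6, Srsf9 and Srsf11. Each of them was bound by FGFR1 in both RA libraries. Most genes with H3.3 were, since of all 3396 such genes FGFR1 bound 3210 in replicate 1 and 2743 in replicate 2. Counted the other way, H3.3 was present at 28.3% of the members bound by FGFR1 replicate 1 and at 24.6% of those bound by replicate 2. The shares for all genes bound by FGFR1 were 28.8% and 25.2%. The H3.3 peak shared a base with an FGFR1 peak at 14 of the 15 in replicate 1 (93.3%, against 87.6% of all genes bound by both) and at 10 in replicate 2 (66.7%, against 76.9%). Srsf6 (14.2) and Hnrnpm (12.9) followed Srsf9 in −log10 p. The H3.3 library was the shallowest, at 1.27 fragments per kb, and a missing peak at the other 49 members does not show that H3.3 was absent there.

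**Figure D4:**
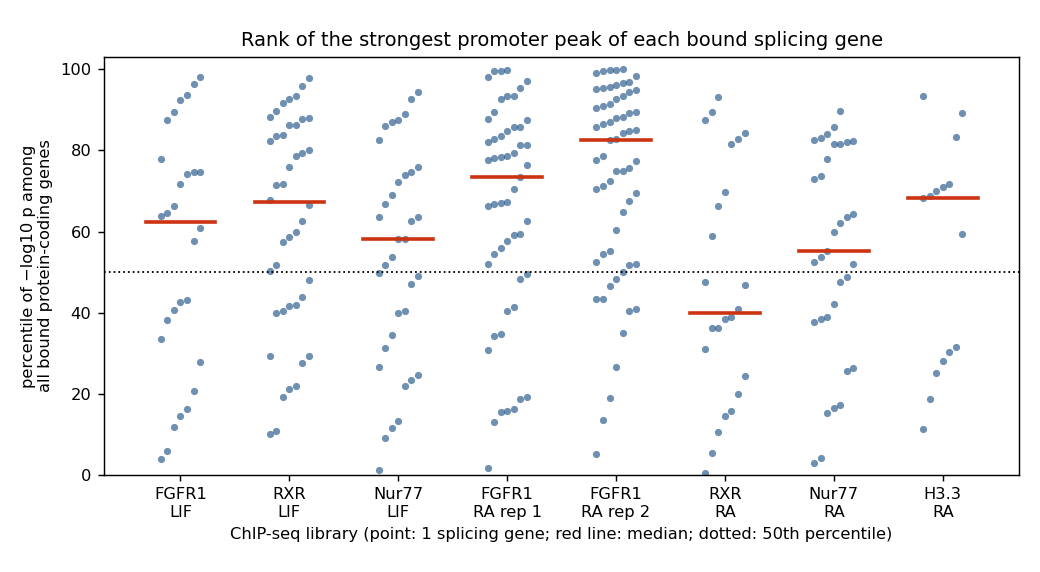
Percentile of the strongest promoter peak of each bound splicing gene (y axis) among the strongest promoter peaks of all protein-coding genes bound in that library (x axis). Each point is 1 gene, the red line is the median and the dotted line the 50th percentile. The median is highest in FGFR1 RA replicate 2 (82.6) and lowest for RXR in RA (39.9).

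Most of the strongest peaks had their summit within 250 bp of a start, as did those of all bound genes. Summits lay on both sides of the starts. The median signed distance ranged from −7.0 bp for H3.3 to 12.0 bp for Nur77 in LIF, negative values being upstream, and the quartiles were as far apart as −135 and 147 bp for Nur77 in RA. In FGFR1 RA replicate 2, 54 of 61 summits (88.5%) were within 250 bp of a start, against 86.2% for all bound genes, and in FGFR1 LIF 25 of 28 (89.3%, against 78.1%). The shares were lowest for Nur77, 71.4% in LIF (67.4% of all) and 72.7% in RA (67.7%). In FGFR1 RA replicate 2, 36 of 61 summits fell in a 5′ untranslated exon, 20 upstream of the gene, 4 in coding sequence and 1 in an intron. That last one belonged to Prpf6, a tri-snRNP protein, at 1055 bp. More than 1 peak, counted over all starts of a gene, was found at 29 of 42 members in RXR LIF (69.0%, against 36.1% of all bound genes). In FGFR1 RA replicate 2 this held for 19 of 61 (31.1%, against 17.1%). The shares were closer in FGFR1 RA replicate 1 (49.1% against 40.4%), Nur77 LIF (17.1% against 15.8%) and H3.3 (6.67% against 5.98%), and the windows of members are longer, as given above.

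**Figure D5:**
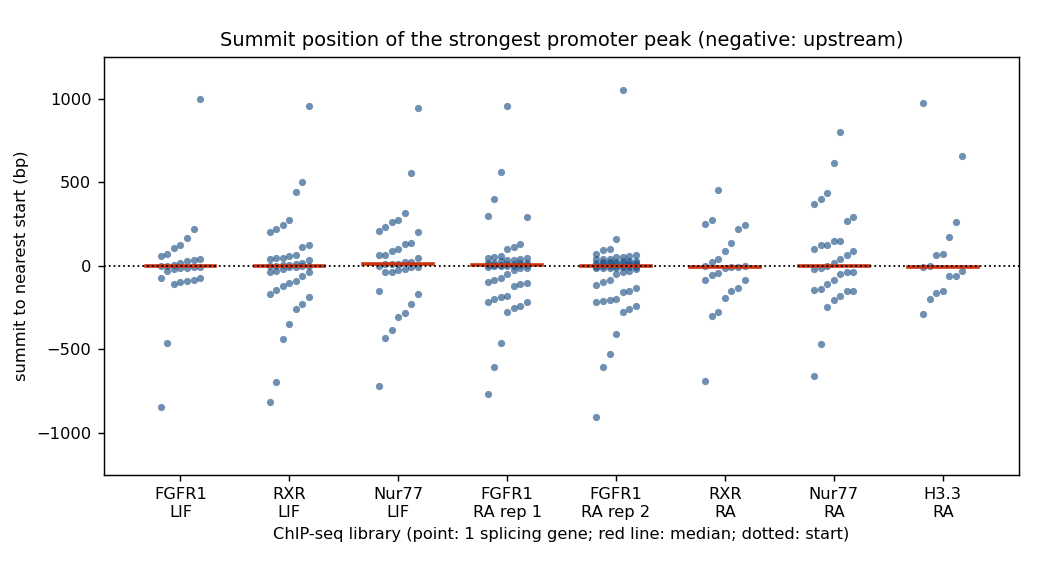
Distance in bp from the summit of the strongest promoter peak to the nearest transcript start of the gene (y axis, negative is upstream) for each bound splicing gene in the 8 libraries (x axis). Each point is 1 gene and the red line is the median, which lies within 12.0 bp of the start in every library.

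Some of these promoters are shared with a neighbour. The windows of 23 of the 64 members also held the start of another protein-coding gene, always on the opposite strand, such as Lrrc40 (23 bp from a start of Srsf11), Ttc39d (153 bp from Srsf7) and Mfsd11 (201 bp from Srsf2). The same share was not counted over all protein-coding genes, so this is not shown to be a trait of the members. Of the 291 strongest member peaks, 35 had their summit nearer to the neighbour. These were found at 12 genes, including Prpf38a beside Orc1 (6 of 6 libraries) and Hnrnpd beside 4930524J08Rik (6 of 6). A peak between divergent starts cannot be given to a single gene. At Snrpb2, a U2 particle protein, the strongest peaks of 4 libraries (FGFR1 RA replicate 1, Nur77 in both states and H3.3) held a run of 20 bp or more in which purines and pyrimidines alternate, a repeat that was frequent in 7 of the 8 lists (21.1% to 51.7% of peaks, and 1.26% in FGFR1 RA replicate 2). It was present in the strongest peak of no other member.

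Away from the starts, a smaller share of these genes than of all genes held a peak. Peaks inside the gene but more than 1000 bp from every start were found at 10 members in FGFR1 RA replicate 1 (15.6%, against 33.6% of all genes), at 9 in Nur77 LIF (14.1%, against 22.1%) and at 7 in RXR LIF (10.9%, against 24.6%). The other 5 libraries had such peaks at 1 to 5 members, and their shares were also below those of all genes. A short gene, or one with many starts, leaves little sequence outside the windows. That remaining length was not compared between members and all genes, so the lower shares are not shown to be a trait of the members. Apart from Sf3b5, a recurrent place was an intron of Sf3b2, a subunit of SF3b, where 6 libraries had a peak with such a run 8713 to 8771 bp from the start.

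Other genes of the splicing pathway, 141 in a list chosen by function, showed similar counts in RA. FGFR1 was found at 119 of them in replicate 1 (84.4%) and at 131 in replicate 2 (92.9%), with 40 bound in LIF (28.4%). RXR bound 112 in LIF (79.4%) and 54 in RA (38.3%), Nur77 65 (46.1%) and 66 (46.8%), and H3.3 40 (28.4%). Of the 101 unbound by FGFR1 in LIF, 73 (72.3%) gained it in both RA libraries, and 0 of 40 were lost from both. In replicate 2 the 19 SR-related proteins and SR kinases, the 10 RNA helicases and the 10 U5 and tri-snRNP proteins were all bound. So were the 9 LSm ring proteins and the 8 minor spliceosome proteins, whereas 27 of the 35 alternative splicing regulators were bound. Replicate 1 did not show this contrast, with 31 of the 35 regulators bound. In the other classes, in the order given, it bound 18 of 19, 9 of 10, 7 of 10, 7 of 9 and 7 of 8. In all 8 libraries 9 genes were bound (6.38%). They were U2af1 and Smndc1 (branch point recognition), Txnl4a (U5), Clk4 (an SR protein kinase), Tia1 and Taf15 (RNA-binding regulators), Smn1 (snRNP assembly), and Ncbp1 and Ncbp2 (the cap-binding complex). Gemin8, of the same assembly complex as Smn1, was bound in none.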

How the data were processed

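ChIP-seq peak lists of 8 libraries were analysed, grouped by their titles. Per the methods and processing notes, the authors aligned reads to mm10 with Bowtie 1.0, keeping reads with a single place, and called peaks per library with MACS2 at a p limit of 1e-05, without a named control or pooling. Each deposited list gives a fold (a ratio of summit fragments to local background), a −log10 p, a −log10 q, a score and the summit position. The score was not used. Per-sample columns left unused otherwise numbered 0.

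The members and the gene lists were chosen with earlier results of these data known. Named genes followed a rule: members bound in all 8 libraries or in none, the 3 strongest per library, those gained or lost by FGFR1 (values for the 6 with the highest mean −log10 p over both RA lists), and the 3 strongest gained or lost by RXR or Nur77. Summit fragments and background were solved from fold and −log10 p (100.0% of peaks within 0.002), and background density stood for depth, since the lists give no read totals. A percentile ranks a gene's strongest promoter peak by −log10 p. No p-value was computed. Scripts used Python 3.11.15, numpy 2.4.6, pandas 2.3.3, scipy 1.17.1 and pysam 0.24.0, and were tested on simulated data. Alternatives were stricter limits (10 for −log10 p, 2 for −log10 q), 10634 peaks per library, promoters of 500 bp, summits in the promoter, peaks without tracts, other gene starts, equal depth and each FGFR1 RA library left out. Of the members, 1 enters all counts but is not reported here by name.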

Additional observations from a re-analysis of the deposited data

Results flagged for a closer look

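The number of splicing genes bound moved in different directions between LIF and RA for the 3 factors, which is why these counts are set apart here. FGFR1 was present at 25 more members in RA replicate 1 and at 33 more in RA replicate 2 than in LIF. For RXR the difference, RA minus LIF, was -18 members, and for Nur77 it was -2. The share of all protein-coding genes bound went from 17.0% to 50.7% and 49.6% for FGFR1, from 42.5% to 23.3% for RXR and from 25.5% to 25.8% for Nur77. The difference between the factors was not tested, because RXR and Nur77 had 1 library per state. At equal depth the RXR libraries held 6 members in LIF and 24 in RA, so the sign of the RXR value turned, and with a −log10 p of at least 10 the Nur77 lists held 20 in LIF and 22 in RA, so that sign turned too.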

How the results depend on the processing

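Of 146 recomputed counts, 130 stayed within 1.5 times the reported value, among them all counts with a −log10 q of at least 2, promoters of 500 bp, summits in the promoter, without peaks that hold tracts, and from the start of the GENCODE gene record only. With the −log10 q limit and with summits in the promoter, every count was identical to the reported one. Neither setting changed the number of members, so they say little about stability. With a −log10 p of at least 10, members bound were 18 for FGFR1 in LIF, 20 for Nur77 in LIF, 9 for RXR in RA and 9 for H3.3, and RXR gained 2. With lists of equal length, they were 22 for RXR in LIF, 17 for Nur77 in LIF, 32 for FGFR1 in RA replicate 1, 11 for RXR in RA and 12 for Nur77 in RA. FGFR1 then bound 32 in both RA libraries and gained 13, and RXR gained 4. At equal depth RXR gained 20 and lost 2, which turned its direction. Under the limit of 10 for −log10 p, Nur77 gained 13 and lost 11, so its small difference turned as well, and it was 0 (12 and 12) from the start of the GENCODE gene record. From the RefSeq gene start only, chosen after seeing the data, RXR gained 0. The cause of these shifts was not tested, beyond the fewer peaks that the stricter settings keep. Without either FGFR1 RA library, members bound by FGFR1 in both or in at least 1 RA library ranged from 53 to 61, the gained from 25 to 33, and the lost stayed at 0. The H3.3 list was not compared at equal depth. No paired analysis was possible because the counts come from no test and the groups compared have 1 library each apart from FGFR1 in RA.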
